A study of Mus musculus with 6 samples.

Results

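The 10 genes described here are the CC chemokine ligands Ccl2, Ccl3, Ccl4, Ccl5, Ccl6, Ccl7, Ccl8, Ccl9 and Ccl12 and the C chemokine ligand Xcl1. They were chosen by name, as 10 of the 20649 genes of a matrix of UMI counts. The matrix holds 9235 cell barcodes from CD45-positive cells that were enriched from CT26 tumors, a mouse colon carcinoma line grown under the skin of the flank of BALB/c mice. The 6 tumors form 2 groups of 3. The exosomes given to the first, exoASO-Scramble, carried a control antisense oligonucleotide, and those given to the second, exoASO-STAT6, carried one directed against Stat6. All tumors thus received exosomes with an oligonucleotide, given into the tumor every other day for 3 injections, and were taken 24 hours after the last. Each barcode ends in 1 of 6 numbers, from 3 to 8, which no sample label pairs with a tumor. The numbers were therefore read as 6 libraries of unknown treatment, no value below compares exoASO-STAT6 with exoASO-Scramble, and no p-value was computed.

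Chemokines are small secreted proteins that guide leukocytes along concentration gradients through G protein-coupled receptors. Ccl2, Ccl7 and Ccl12 act on Ccr2, the receptor with which inflammatory monocytes leave the bone marrow and enter tumors. Ccl3, Ccl5, Ccl6 and Ccl9 act on Ccr1, a receptor of myeloid cells, and Ccl3, Ccl4 and Ccl5 are known as inflammatory chemokines of activated leukocytes. Xcl1 acts on Xcr1, the receptor of cross-presenting dendritic cells. In tumors these ligands are known as products of macrophages, neutrophils, dendritic cells and activated lymphocytes.

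The source of each ligand was read from gates on raw UMI counts. The macrophage gate asked for at least 3 UMIs of Csf1r and Adgre1 together with none of Cd3e or Ncr1, and held 4688 barcodes. The neutrophil gate (at least 5 UMIs of S100a9) held 1049 barcodes, the dendritic gate (at least 1 UMI of Flt3) 344 and the basophil gate (at least 1 UMI of Mcpt8) 90. The NK gate (at least 1 UMI of Ncr1) held 387 barcodes and the T gate (at least 2 UMIs of Cd3e, Cd3d and Cd3g together) 430, both with at most 1 UMI of Csf1r and Adgre1. A level is the sum of a ligand's UMIs over a gate per 1000000 UMIs of that gate (CPM). With a 3′ chemistry each UMI stands for 1 transcript end, so CPM is not divided by gene length.

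The gates are not pure, and several values below rest on this. Of the neutrophil-gated barcodes, 571 also passed the macrophage gate, and 44 had no UMI of Csf1r or Adgre1. The corresponding number was 102 in the dendritic gate and 42 in the basophil gate. Median depth was 13394.5 UMIs per barcode in the macrophage gate, 19067 in the neutrophil gate and 7614 in the NK gate. A further 1279 barcodes held lymphocyte and macrophage transcripts together, passed no gate and had a median of 23765 UMIs. Library totals ranged from 11492757 to 33902084 UMIs, and 16 barcode sequences occurred in more than 1 library. The defining markers stood in their gates, with C1qa at 2945 CPM in macrophages, S100a8 at 1373 CPM in the neutrophil gate, Prf1 at 1723 CPM in the NK gate and Trbc2 at 1100 CPM in the T gate. Markers of B cells, fibroblasts and epithelial tumor cells (Cd79a, Col1a1, Krt8 and 6 others) stayed under 10 CPM in each of the 6 gates, and Epcam stood at 17.5 CPM (18 UMIs) in the dendritic barcodes without Csf1r or Adgre1. The carryover of macrophage RNA is gauged below by C1qa, C1qb, Lyz2, Apoe, Mrc1 and Cd68, which lay at 3.59 to 10.9% of their macrophage level in the NK gate and at 4.27 to 11.7% in the T gate. By library these shares ran from 1.47 to 36.9% and from 1.502 to 35.2%. In barcodes that passed exactly 1 gate, the same 6 transcripts stood at 67.9 to 78.8% of their macrophage level in the neutrophil gate, at 36.04 to 47.0% in the dendritic gate and at 26.3 to 58.1% in the basophil gate. The part of macrophage RNA in the levels of these gates was not tested.

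Taken over the 10 ligands, 4 had their highest level in the macrophage gate, 3 in the basophil gate, 2 in the NK gate and 1 in the neutrophil gate. Over 13364 genes the same gates led for 20.4%, 10.3%, 17.1% and 7.86%, and the dendritic and T gates, which led for no ligand, for 17.6% and 26.8%. The 4 macrophage ligands were Ccl2, Ccl7, Ccl9 and Ccl12, and the 3 basophil ligands were Ccl3, Ccl4 and Ccl6. Ccl5 and Xcl1 led in the NK gate and Ccl8 in the neutrophil gate. Ccl9 was highest in the macrophage gate in 2 of 6 libraries and led in the basophil gate after thinning to 1000 UMIs per barcode, which left 3 macrophage and 4 basophil ligands. Without the library with suffix 6 the basophil gate led for 0 ligands and the neutrophil gate for 4, and without suffix 5 they led for 1 and 3.

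**Figure D1:**
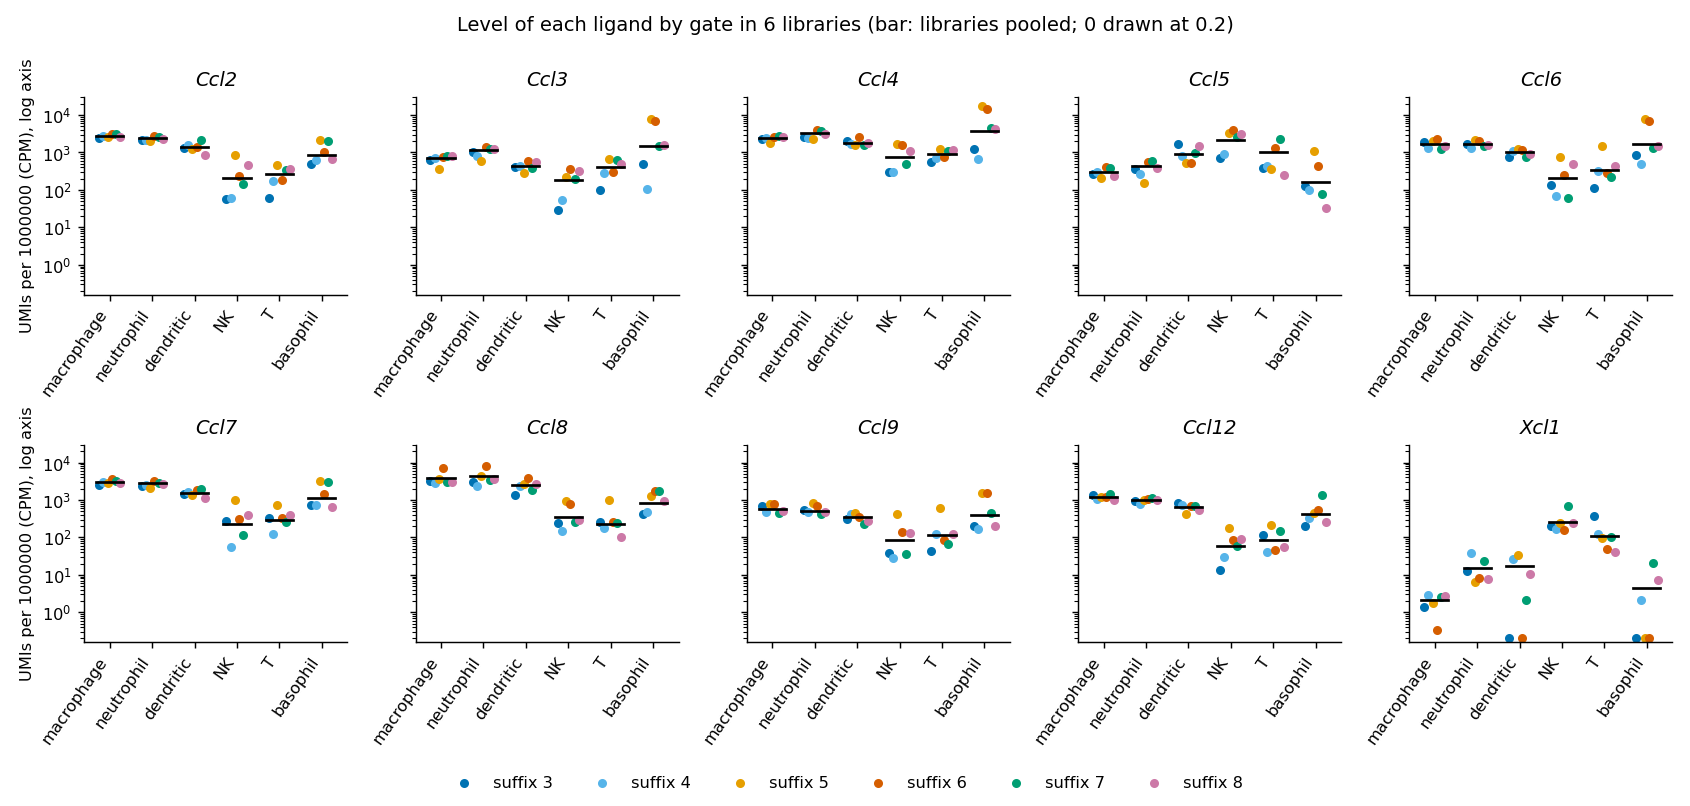
Level of each ligand in UMIs per 1000000 (CPM, log axis) by gate, with 1 point per library and a bar for the 6 libraries pooled. Ccl2, Ccl7, Ccl8 and Ccl12 lie higher in the macrophage gate than in the NK and T gates in all 6 libraries, Ccl5 and Xcl1 run the other way in all 6, and the basophil points of Ccl3, Ccl4 and Ccl6 spread widely.

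Ccl2, the main monocyte attractant, had a level of 2438 CPM in the lowest library, 2652 CPM in the median and 3166 CPM in the highest in the macrophage gate. In the neutrophil gate it ran from 1982 through 2234 to 2761 CPM, lower in each of 6 libraries although the 2 ranges overlap. The dendritic gate followed with 874 to 2120 CPM, and the NK and T gates lay at 207 and 264 CPM pooled, or 7.48% and 9.54% of the macrophage level. In the 102 dendritic barcodes without Csf1r or Adgre1 the level of Ccl2 was 56.4 CPM, which is 2.04% of that of macrophages. The Ccl2 UMIs of the dendritic gate thus lay mostly in barcodes that also hold Csf1r or Adgre1. The 201 dendritic barcodes that passed exactly 1 gate had 1015 CPM of Ccl2, or 36.6% of the macrophage level. The part of macrophage RNA in this level was not tested.

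Ccl7, which shares the receptor of Ccl2, ran from 2548 through 2946 to 3576 CPM in the macrophage gate. In the neutrophil gate it ran from 2044 through 2645 to 3228 CPM and was lower in 6 of 6 libraries. Ccl12, a Ccr2 ligand found in mice, had 971, 1203 and 1428 CPM as its lowest, median and highest macrophage levels. Its neutrophil level of 797 to 1162 CPM was lower in 5 of 6 libraries, and its NK level of 57.8 CPM was 4.93% of the macrophage level. With only barcodes that passed exactly 1 gate, the macrophage level exceeded the neutrophil level in 5 of 6 libraries for Ccl2 and in 4 of 6 for Ccl7 and for Ccl12. The NK shares of Ccl2, Ccl7 and Ccl12 (7.48, 7.67 and 4.93%) lay within the range of the 6 macrophage transcripts, so no NK expression could be told from carryover.

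Ccl8, known in mice as a ligand of Ccr8, ran from 2869.8 through 3102 to 7228 CPM in the macrophage gate. The library with suffix 6 was alone at the top, and the other 5 lay between 2869.8 and 3688 CPM. In the neutrophil gate Ccl8 ran from 2324 through 3626 to 7915 CPM, again highest in suffix 6, and exceeded the macrophage level in 4 of 6 libraries. The 44 neutrophil barcodes without Csf1r or Adgre1 had 2365 CPM pooled against 3767 CPM in macrophages, but ran from 85.5 to 8356 CPM by library, above the macrophage level in suffix 5. In the same 44 barcodes C1qb, C1qa, Lyz2, Apoe, Mrc1 and Cd68 stood at 11.9, 13.2, 23.9, 31.9, 42.4 and 96.0% of their macrophage level. Its NK level of 345 CPM and T level of 229 CPM were 9.16 and 6.09% of the macrophage level.

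Ccl6 and Ccl9, related Ccr1 ligands of myeloid cells, lay at 1267, 1681 and 2292 CPM and at 440, 583 and 787 CPM as the lowest, median and highest macrophage libraries. For Ccl6 the macrophage, neutrophil and basophil gates had nearly the same pooled level (1647, 1659 and 1662 CPM), and their ranges over libraries overlapped. The basophil gate was highest in 2 of 6 libraries. This near equality did not hold after thinning, where Ccl6 stood at 1803, 1848 and 7876 CPM in the same order. In barcodes that passed exactly 1 gate the levels were 1599, 1409 and 2192 CPM. For Ccl9 the macrophage gate exceeded the neutrophil gate in 4 of 6 libraries, with ranges that overlap (411 to 823 CPM in the neutrophil gate), and the basophil gate in 3 of 6. After thinning, Ccl9 stood at 652 CPM in the macrophage gate and at 1517 CPM in the basophil gate. In the T gate Ccl6 and Ccl9 stood at 20.2 and 19.5% of the macrophage level, above the pooled 4.27 to 11.7% of the 6 macrophage transcripts, but by library their shares (6.03 to 74.8% and 6.65 to 82.7%) overlapped those of the transcripts. Leaving out the library with suffix 5, where the T gate held 40 barcodes with 1473 CPM of Ccl6, the other libraries lay between 113 and 433 CPM.

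Ccl3 and Ccl4, inflammatory chemokines also called MIP-1alpha and MIP-1beta, were found at some level in all 6 gates. In the macrophage gate Ccl3 ran from 352 through 725 to 798 CPM and Ccl4 from 1738 through 2478 to 2779 CPM, each lowest in the library with suffix 5. In the neutrophil gate Ccl3 ran from 586 through 1108 to 1373 CPM and was higher than in the macrophage gate in 6 of 6 libraries. Ccl4 ran from 2304 through 2876 to 3893 CPM there, also higher in 6 of 6. In the 44 neutrophil barcodes without Csf1r or Adgre1, Ccl3 stood at 2792 CPM and Ccl4 at 5813 CPM, or 400% and 237% of the macrophage level, and both were above it in 5 of 6 libraries, with suffix 5 (4 barcodes) below. In the same barcodes Ccl2, Ccl7 and Ccl12 stood pooled at 48.5 to 49.9% of theirs, but ran from 0 to 107%, from 6.16 to 119% and from 0 to 97.8% by library, so that these 44 barcodes set no order for the Ccr2 ligands.

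In the NK gate Ccl3 and Ccl4 stood at 25.8 and 30.6% of the macrophage level and in the T gate at 59.8 and 37.0%, above the pooled share of each of the 6 macrophage transcripts. By library the NK share ran from 4.56 to 61.5% for Ccl3 and from 12.6 to 95.6% for Ccl4, and the T share from 16.2 to 186% and from 23.9 to 69.8%. These ranges overlap those of the macrophage transcripts by library, which reach 36.9% in the NK gate and 35.2% in the T gate. After thinning each barcode to 1000 UMIs, 26.6% of NK barcodes (95% exact binomial interval 22.3 to 31.4) and 22.5% of T barcodes (18.6 to 26.7) had a UMI of Ccl4, against 58.0% of macrophage barcodes. The corresponding shares before thinning were 52.2, 49.5 and 84.0%. Ccl4 stood at 807 CPM in T barcodes with Cd8a and no Cd4. The 85 with Cd4 and no Cd8a had 641 CPM of Ccl4, but also 745 CPM of Ccl2, 737 CPM of Ccl7 and 767 CPM of Ccl6, so that Ccl4 did not stand apart there from ligands of macrophages. The 64 dendritic barcodes without Csf1r, Adgre1 or Ccr7 had 1241 CPM of Ccl4 and 127 CPM of Ccl3. In the same 64 barcodes Ccl2, Ccl6 and Ccl7 stood at 67.9, 46.3 and 46.3 CPM.

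The basophil gate held the highest levels of Ccl3 and Ccl4 and the widest spread, from 107 to 7674 CPM for Ccl3 and from 653 to 17112 CPM for Ccl4. Mcpt8 alone did not define a uniform set of barcodes, since 46 of the 90 had no UMI of Gata2, Cpa3, Ms4a2, Fcer1a or Il4. These 46 were deep (median 30063 UMIs), with Gzma at 4434 CPM and Prf1 at 1443 CPM, genes of cytotoxic granules. Ccl3 stood there at 151 CPM and Ccl4 at 807 CPM. The other 44 had a median of 3740.5 UMIs, Ccl3 at 5149 CPM, Ccl4 at 11764 CPM, Ccl6 at 4811 CPM and Ccl9 at 1040 CPM. This division of the gate was chosen after its values had been seen. Within the 44, Gzma was found in 7 barcodes and Mcpt4, a mast cell protease, in 5.

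Among the 44 barcodes with another basophil marker, the level of Ccl3 by library ran from 113 CPM in suffix 4 through 1234 CPM in suffix 3 and 7076 CPM in suffix 7 to 30753 CPM in suffix 8. Suffix 4 (8 barcodes) and suffix 3 (3 barcodes) also held nearly all of the Gzma, at 6471 and 16038 CPM. In suffixes 5, 6, 7 and 8, with 12, 11, 5 and 5 barcodes, Gzma was at most 38.5 CPM and Ccl4 lay between 17344.5 and 75528 CPM. In those 4 libraries Ccl6 lay between 5729 and 22048.5 CPM and Ccl9 between 1656 and 4699 CPM. The 27 of these barcodes without Csf1r or Adgre1 had C1qa at 37.5 CPM and Ccl3 at 9775 CPM, Ccl4 at 21037 CPM and Ccl6 at 9495 CPM. In the same 27 barcodes Ccl2 stood at 312 CPM, Ccl7 at 506 CPM, Ccl8 at 43.7 CPM and Ccl12 at 18.7 CPM, each with a UMI in at most 6 of them. In the 44, Ccl2 was at 725 CPM and Ccl7 at 1106 CPM, with 2363 and 3575 CPM in suffix 5, 1659 and 3663 CPM in suffix 7, 471 and 614 CPM in suffix 4 and at most 104 CPM of either in suffixes 6 and 8. In suffixes 6 and 8 the basophil barcodes thus held Ccl3, Ccl4 and Ccl6 with little of the Ccr2 ligands, on 11 and 5 barcodes. C1qa was at 2339 and 1628 CPM in suffixes 5 and 7 of the 44 and at 0 and 52.1 CPM in suffixes 6 and 8. In the 27 without Csf1r or Adgre1, Ccl2 and Ccl7 stood at 81.2 and 244 CPM in suffix 5, at 1382 and 829.4 CPM in suffix 7 and at 911 and 1702 CPM in suffix 4. C1qa was at 0 in suffixes 4 and 7 there, and Mcpt4 was at 3381 and 16588 CPM in them and at 0 in the other libraries. The part of macrophage RNA or of mast cell barcodes in these values was not tested.

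**Figure D2:**
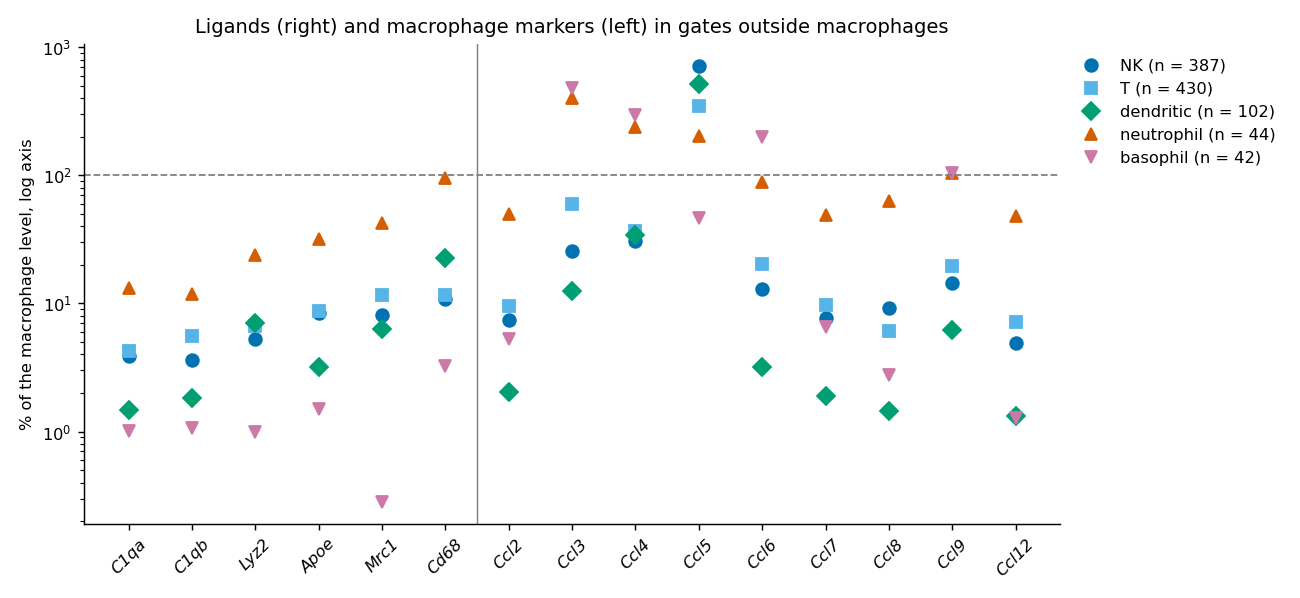
Level of 6 macrophage transcripts (left) and 9 ligands (right) in gates outside macrophages, as a percentage of the macrophage level on a log axis, with the dendritic, neutrophil and basophil gates restricted to barcodes without Csf1r or Adgre1. Pooled, Ccl5 in NK, T, dendritic and neutrophil barcodes, Ccl3, Ccl4 and Ccl9 in neutrophil and basophil barcodes and Ccl6 in basophil barcodes lie above the dashed line at 100%, whereas C1qa in the basophil barcodes lies at 1.02%. Single libraries, which are not plotted, lie on both sides of that line for the neutrophil and basophil values named (Ccl3 in basophil barcodes from 4.97 to 5480%).

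Ccl5, also called RANTES and known as a product of cytotoxic lymphocytes, ran from 700.2 through 2900.5 to 4088 CPM in the NK gate. Pooled, this was 2174 CPM, and 5355 CPM after each barcode was thinned to 1000 UMIs, so that shallow NK barcodes held more of it. In the T gate it ran from 244 through 417 to 2318 CPM, below the NK gate in 6 of 6 libraries. The T barcodes with Cd8a and no Cd4 (191) had 1416 CPM and those with Cd4 and no Cd8a (85) had 239 CPM. The dendritic gate stood at 522 to 1670 CPM by library, and the macrophage gate at 203, 281 and 421 CPM as lowest, median and highest. The neutrophil gate ran from 155 through 377 to 577 CPM and exceeded the macrophage gate in 4 of 6 libraries. In neutrophil barcodes that passed exactly 1 gate Ccl5 stood at 183% of the macrophage level (103 to 233% by library), and in the 44 without Csf1r or Adgre1 at 202%, from 0 to 993%. The former also held Gzma at 733 CPM and Cd3g at 173 CPM, against 42.6 and 3.92 CPM in macrophage barcodes that passed exactly 1 gate. The 44 held Gzma at 250 CPM, Cd3g at 125 CPM and Ccr7 at 146 CPM. The part of lymphocyte or dendritic RNA in these Ccl5 levels was not tested. In the T gate suffixes 7 and 6 had 2318 and 1297 CPM of Ccl5 and the other 4 libraries 244 to 448 CPM, and in suffix 8 the T level of 244 CPM was close to the 239 CPM of macrophages. The values by Cd8a and Cd4 are pooled over libraries.

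Among dendritic barcodes without Csf1r or Adgre1, those with Ccr7 (38), a receptor of mature dendritic cells that leave for lymph nodes, had 4232 CPM of Ccl5 (95% exact Poisson interval 4028 to 4445, counting error only). The 64 without Ccr7 had 13.9 CPM (6.35 to 26.4). Ccl4 ran the other way, with 147 CPM in the barcodes with Ccr7 and 1241 CPM in those without. These values are pooled over libraries. In all dendritic barcodes without Csf1r or Adgre1, with or without Ccr7, Ccl5 ran from 825 to 4165 CPM by library and had a UMI in 35.3% of barcodes. In the whole dendritic gate the 102 barcodes with Ccr7 had 2501 CPM of Ccl5, and those with Xcr1, Siglech or Cd209a had 214, 149 and 249 CPM.

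Xcl1 was highest in the lymphocyte gates. In the NK gate it ran from 160.3 through 220.1 to 679 CPM and in the T gate from 41.2 through 99.6 to 384 CPM, with the NK gate higher in 5 of 6 libraries. The macrophage gate had 2.08 CPM pooled and at most 2.86 CPM in any library, and the neutrophil and dendritic gates had 15.2 and 16.7 CPM. After thinning to 1000 UMIs, 13.8% of NK barcodes and 6.15% of T barcodes had a UMI of Xcl1, and 0.107% of macrophage barcodes did (27.9, 13.3 and 0.896% before thinning). Within the T gate Xcl1 stood at 108 CPM with Cd8a and no Cd4, at 137 CPM in the 53 barcodes with Foxp3 and at 6.30 CPM with Cd4 and no Cd8a. The Foxp3 value rests on 49 UMIs.

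The share of each ligand's UMIs by class of barcode shows how much of it lay outside the gates. Barcodes that passed the macrophage gate alone held 41.9% of all UMIs of the matrix. They held 50.4, 49.9 and 51.8% of the UMIs of Ccl2, Ccl7 and Ccl12, 23.2% of those of Ccl5 and 3.33% of those of Xcl1. Barcodes of the neutrophil gate alone held 8.02% of Xcl1 with 8.22% of all UMIs, and those of the T gate alone 7.08% with 2.30% of all UMIs. The ungated barcodes with lymphocyte and macrophage transcripts held 23.7% of all UMIs but 51.1% of the UMIs of Xcl1, from 31.2 to 77.2% by library. Of the UMIs of Ccl5 they held 30.1%, from 20.5 to 38.2% by library. Barcodes of the NK gate alone held 20.2% of Xcl1 and 10.3% of Ccl5 with 1.87% of all UMIs. By library the NK gate alone held from 4.21 to 33.9% of Xcl1 and the T gate alone from 0 to 32.7%, ranges that overlap that of the barcodes of mixed transcripts.

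The receptors and the remaining ligands of the family set these levels in context. Among the receptors, Ccr1 led in the neutrophil gate (302 CPM, and 259 CPM in macrophages) and Ccr2 in the NK gate (419 CPM, and 328 CPM in macrophages). Xcr1 led in the dendritic gate (88.8 CPM), and Ccr3, Ccr4, Ccr8 and Ackr2 had 157, 146, 36 and 4 UMIs in the whole matrix. Ccr1 and Ccr2 were thus measured well, and Ccr8, the receptor of Ccl8, was hardly detected at this depth. Of 12 other CC ligands, 10 were in the matrix. Ccl24, an eotaxin, had the most UMIs (19095, 157 CPM in macrophages and highest in the neutrophil gate), Ccl22 and Ccl17 led in the dendritic gate (107 and 26.4 CPM), and the remaining 7 had between 2 and 1172 UMIs.

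Within macrophages each ligand was unevenly spread over barcodes. The highest 10% of macrophage barcodes by level, taken within each library, held 85.7% of the summed level of Ccl5, 60.7% of that of Ccl8 and 52.0% of that of Ccl12. For Ccl2, Ccl3, Ccl4, Ccl6, Ccl7 and Ccl9 this share lay between 39.0 and 49.0%. The median over 508 genes of similar level (300 to 4000 CPM) was 23.2%, and 2 of them exceeded Ccl5. Ccl5 had no UMI in 64.6% of macrophage barcodes, whereas Ccl2 had none in 10.3%.

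Pairs of ligands ran together from barcode to barcode. Correlations were computed within each library on log-scaled counts over the 4688 macrophage barcodes and are given as the median of 6 libraries, with no test, since barcodes of a library share their tumor, depth and free RNA. Ccl2 and Ccl7 had a Pearson r of 0.81 (0.79 to 0.84 by library), Ccl3 and Ccl4 of 0.70 (0.63 to 0.72) and Ccl6 and Ccl9 of 0.68 (0.64 to 0.69). Ccl12 joined Ccl7 at 0.61 and Ccl2 at 0.59. The other 31 pairs of the 9 CC ligands lay between -0.21 and 0.32. Each of the ligands Ccl2, Ccl3, Ccl4, Ccl6, Ccl7, Ccl9 and Ccl12 had another ligand as its nearest of 9544 genes. Ccl5 stood apart, with -0.21 against Ccl2 and -0.18 against Ccl7.

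The same pairs shared their highest barcodes. Of the 468 macrophage barcodes highest in Ccl2, 57.5% were among the 468 highest in Ccl7, where 10% would be shared if the 2 were unrelated. The share was 54.9% for Ccl3 and Ccl4, 52.8% for Ccl6 and Ccl9 and 40.6% for Ccl2 and Ccl12. For Ccl2 and Ccl5 it was 3.63%, and for Ccl5 and Ccl6 it was also 3.63%. In the barcodes highest in Ccl2, the level of Ccl7 was 8852 CPM against 2311 CPM in the rest, and that of Ccl5 was 97.5 CPM against 329 CPM, lower in 6 of 6 libraries.

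The genes of each pair lie close together on chromosome 11. By GENCODE M21 on GRCm38, the build that the labels name as mm10, Ccl2 lies at chr11:82035571-82037453 and Ccl7 at chr11:82045712-82047525, both on the plus strand. Beyond Ccl11, on the same strand, lie Ccl12 at chr11:82101845-82103400 and Ccl8 at chr11:82115185-82116799. A further group holds Ccl5 at chr11:83525778-83530518, Ccl9 at chr11:83572919-83578636, Ccl6 at chr11:83587882-83593087 and Ccl3 at chr11:83647844-83649355 on the minus strand and Ccl4 at chr11:83662584-83664683 on the plus strand. Xcl1 lies alone at chr1:164931644-164935527 on the minus strand. The gene starts of Ccl2 and Ccl7 are 10.1 kb apart, those of Ccl3 and Ccl4 13.2 kb and those of Ccl6 and Ccl9 14.5 kb. The 14 pairs with starts under 100 kb apart had a median r of 0.27, from -0.11 to 0.81, and the 20 pairs over 1000 kb apart a median of 0.15, from -0.21 to 0.32. Neighbours differed in r, since Ccl8 and Ccl12, 13.3 kb apart, had 0.32 (0.25 to 0.42 by library) and Ccl5 and Ccl9, 48.1 kb apart, had -0.10.

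**Figure D3:**
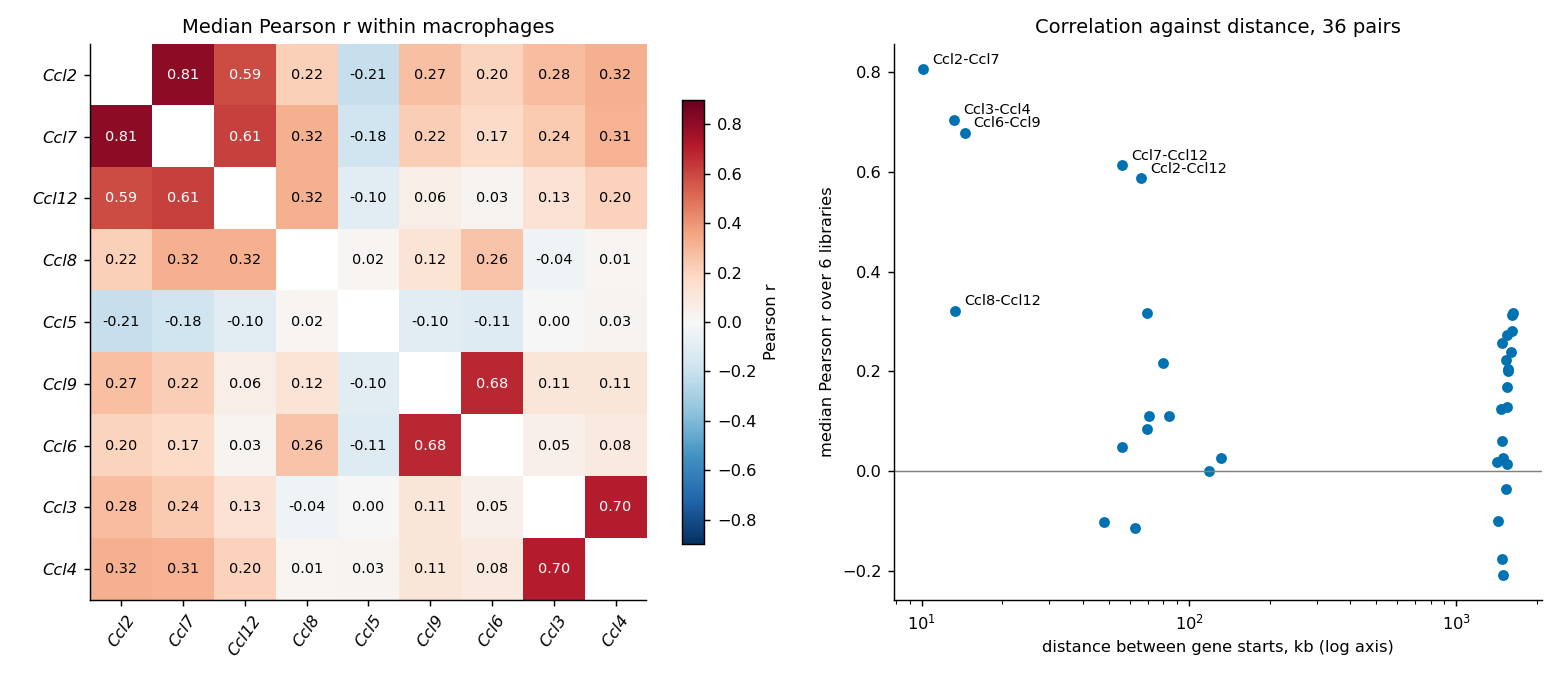
Median Pearson r over 6 libraries for each pair of CC ligands within macrophages, ordered along chromosome 11 (left), and the same 36 values against the distance between gene starts in kb on a log axis (right). The pairs Ccl2 and Ccl7, Ccl3 and Ccl4, and Ccl6 and Ccl9 lie at 0.68 to 0.81 within 15 kb, and pairs over 1000 kb apart reach at most 0.32.

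Shared transcript sequence was checked, because near-identical copies can exchange reads. No 31-base word of the transcripts of Ccl2, Ccl3, Ccl4, Ccl7, Ccl8, Ccl12 or Xcl1 occurred in another gene. The share of such words was 0.539% for Ccl5, 1.02% for Ccl6 and 3.75% for Ccl9.

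The sequence before the gene starts was available from RefSeq (GRCm38.p6) for Ccl3, Ccl6, Ccl8, Ccl9, Ccl12 and Xcl1, 6 of the 10. The 250 bases before the start are shown for 2 pairs of neighbours, Ccl6 and Ccl9, with an r of 0.68, and Ccl8 and Ccl12, with an r of 0.32, since these had the 2 best local alignments of the 15 pairs. Capitals mark the aligned stretch of each pair. For Ccl6 and Ccl9 it is 17 bases with 16 identical, from -59 to -43 of Ccl6 and from -18 to -2 of Ccl9, where -1 is the last base before the start. For Ccl8 and Ccl12 it spans 58 aligned positions with 41 identical and begins at -147 in both.
Ccl6, chr11:83593088-83593337, minus strand: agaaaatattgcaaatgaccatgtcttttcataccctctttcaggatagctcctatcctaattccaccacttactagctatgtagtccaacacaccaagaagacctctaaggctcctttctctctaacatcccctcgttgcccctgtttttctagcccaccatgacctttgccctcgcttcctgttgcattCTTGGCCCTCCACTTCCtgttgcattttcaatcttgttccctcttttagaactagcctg
Ccl9, chr11:83578637-83578886, minus strand: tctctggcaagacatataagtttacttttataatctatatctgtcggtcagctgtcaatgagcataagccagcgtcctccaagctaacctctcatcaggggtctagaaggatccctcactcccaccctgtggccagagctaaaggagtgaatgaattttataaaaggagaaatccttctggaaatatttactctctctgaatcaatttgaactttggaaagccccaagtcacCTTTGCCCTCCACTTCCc
Ccl8, chr11:82114935-82115184, plus strand: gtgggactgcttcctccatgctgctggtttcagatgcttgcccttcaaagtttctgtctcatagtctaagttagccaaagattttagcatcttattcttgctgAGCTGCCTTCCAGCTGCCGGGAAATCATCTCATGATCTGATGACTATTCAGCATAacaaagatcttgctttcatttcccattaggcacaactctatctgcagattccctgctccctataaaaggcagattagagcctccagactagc
Ccl12, chr11:82101595-82101844, plus strand: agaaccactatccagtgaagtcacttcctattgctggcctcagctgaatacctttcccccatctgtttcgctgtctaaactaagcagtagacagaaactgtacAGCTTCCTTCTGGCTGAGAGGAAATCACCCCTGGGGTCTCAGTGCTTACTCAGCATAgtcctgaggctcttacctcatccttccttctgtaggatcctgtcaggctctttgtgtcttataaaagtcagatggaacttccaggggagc

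The stretch shared by Ccl6 and Ccl9 holds the letters ACTTCC, the core that factors of the ETS family such as the myeloid factor PU.1 read, at -48 in Ccl6 and at -7 in Ccl9. On either strand ACTTCC occurred in 5 of the 6 sequences (Ccl3, Ccl6, Ccl9, Ccl12 and Xcl1) and in 19.7% of 32817 mouse windows of the same 250 bases. The AP-1 letters TGANTCA occurred in Ccl9 (6.75% of all windows). The letters searched for kappaB (GGGAATTCC, GGGANNTCC, or GGGAN followed by TTTCC), ISRE (GAAA and GAAA with NN between), GAS (TTCNNNGAA), STAT6 (TTC and GAA with NNNN between) and C/EBP (TTGCNNAA) were not in these windows, and 2.97 to 9.57% of all windows hold them. The kappaB letters can overlap one another, and no other pair of motifs was searched jointly. A match is a description of letters and not of a bound site.

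The genes that ran closest to each ligand within macrophages differed between the pairs, with some in common. After Ccl4, Ccl3 was closest to Cxcl2 (0.44), Tnf (0.43), Nfkbiz (0.41) and Il1rn (0.39), and Ccl4 was closest to Tnf (0.44), Nfkbiz (0.44), Cxcl2 (0.44) and Egr1 (0.42). Cxcl2 attracts neutrophils, Tnf is the classical inflammatory cytokine and Nfkbiz an NF-kB regulator. Over a list of 10 NF-kB-inducible inflammatory genes the median r was 0.31 with Ccl3 and 0.33 with Ccl4, with 10 of 10 above 0, where the median over all genes lay between -0.02 and 0.03 for every ligand. A list of 11 immediate early and heat shock genes, which dissociation of tissue also induces, had medians of 0.21 and 0.27, also with 11 of 11 above 0. The part of tissue handling in these values was not tested. With Ccl8 the NF-kB-inducible list had a median of -0.12 and 0 of 10 above 0.

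Ccl2, Ccl7 and Ccl12 overlapped in their nearest genes, with Ch25h near Ccl2 and Ccl12, Mrc1 near Ccl2 and Ccl7, and Snx2 near Ccl7 and Ccl12. Lgmn was the next gene of Ccl7 (0.51) after Ccl2 and Ccl12. Ch25h, an interferon-induced hydroxylase of cholesterol, had an r of 0.46 with Ccl2 and 0.55 with Ccl12, and Mrc1, the mannose receptor of resident-like macrophages, 0.43 with Ccl2 and 0.50 with Ccl7. Ccl8 was closest to the lysosomal proteases Ctsb (0.57) and Lgmn (0.52), to Folr2 (0.52), a folate receptor of resident macrophages, to Selenop (0.48) and to Timp2 (0.48). A list of 8 monocyte genes had medians of -0.14 with Ccl2, -0.20 with Ccl7, -0.19 with Ccl8 and -0.15 with Ccl12, with 0 of 8 above 0 for each. These 4 ligands thus ran against monocyte genes from barcode to barcode. Ly6c2 with Ccl7 (-0.26) and Ccr2 with Ccl8 (-0.31) were the lowest of them.

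Ccl6 was closest, after Ccl9, to Wfdc17 (0.41), Ctsd (0.38), Ctsl (0.38) and Hal (0.36), and Ccl9, after Ccl6, to Ctsl (0.38), Pf4 (0.36), Ahnak (0.34) and Emp1 (0.32). For 9 measured interferon-response genes the highest median was 0.12, with Ccl12, and the lowest -0.04, with Ccl6.

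Ccl5 within macrophages was closest to Gm15056 (0.42), the complement gene C3 (0.38), AW112010 (0.34), Ly6i (0.33) and the MHC class II gene H2-Eb1 (0.26). The 468 barcodes highest in Ccl5 had 2879 CPM of it against 60.0 CPM in the rest. Of the nearest genes, which that choice makes higher in these barcodes, C3 was at 384 against 121 CPM, Ly6i at 127 against 23.4 CPM and H2-Eb1 at 2278 against 1077 CPM. C1qa was lower there in 6 of 6 libraries (2258 against 3009.9 CPM), and Csf1r was at a similar level (377 against 360.2 CPM). Among lymphocyte transcripts, Gzma was higher (151 against 31.9 CPM, with a UMI in 15.4% of these barcodes), as was Nkg7 (41.0 against 10.9 CPM), while Cd3g (3.48 against 3.97 CPM) was not. The mature dendritic cell genes Ccr7 (85.4 against 5.38 CPM) and Fscn1 (84.1 against 3.84 CPM) were higher in 6 of 6 libraries, with a UMI in 6.84 and 5.77% of these barcodes. The stricter macrophage gate asked for at least 6 UMIs of Csf1r and Adgre1 and fewer than 5 UMIs of S100a9. It also asked for no UMI of Gzma, Nkg7, Cd3g or 6 other lymphocyte genes. Its level of Ccl5 was 263 CPM against 304 CPM in the gate as a whole. The share of each condition in this difference was not tested. The part of lymphocyte or dendritic RNA in single barcodes was not tested.

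The macrophages were then divided by 4 genes, each at a fixed level. C1qa at 1000 CPM marks mature macrophages and left 2714 barcodes at or above and 1974 below. Ly6c2 at 200 CPM, a monocyte surface gene, left 1500 and 3188. Rsad2 at 200 CPM, an interferon-induced antiviral gene, left 1239 and 3449. Mmp12 at 200 CPM, the macrophage elastase, left 724 and 3964. A ligand was called where it differed more than 2-fold pooled and in the same direction in all 6 libraries.

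By this rule 1 ligand was called, Ccl5 in the Ly6c2 division, where 2.07% of 12025 genes were called higher and 3.87% lower (12.8% were higher in every library at any size). Its level was 506 CPM at high Ly6c2 and 229 CPM at low Ly6c2, a log2 ratio of 1.14 (0.53 to 1.88 by library). At high Ly6c2 the libraries ran from 280.4 to 680.1 CPM with Ccl5 above the low side of the same library in each. Ccl2, Ccl7 and Ccl8 were lower at high Ly6c2 in 6 of 6 libraries, by log2 ratios of -0.39, -0.39 and -0.19, and 16.1% of all genes were lower in every library. The library medians of these ratios were larger in size (-0.71, -0.84 and -0.63) than the pooled values. Suffix 6 holds 389 of the 1500 high barcodes and had ratios of -0.05, -0.01 and -0.41.

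In the C1qa division 0 of 10 ligands were higher at high C1qa in every library, where 23.8% of all genes were. Ccl12 was at 1373 CPM at high C1qa and 736 CPM at low C1qa, a log2 ratio of 0.90, with 5 libraries between 1.29 and 1.81 and suffix 6 at -0.22. Ccl5, Ccl6 and Ccl9 were lower at high C1qa in 6 of 6 libraries (log2 ratios of -0.94, -0.69 and -0.80), as were 13.9% of all genes. Ccl9 had 469 CPM at high and 817 CPM at low C1qa, and Ccl6 1380.4 and 2223 CPM. Ccl2 and Ccl7 were higher at high C1qa in 5 of 6 libraries, with suffix 6 again opposite (-0.44 and -0.52). None of these passed 2-fold pooled, where 5.38% of genes were called higher and 2.83% lower. Without suffix 6 Ccl12 was called higher, and without suffix 4 Ccl5 was called lower.

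Over 5 groups of equal size by C1qa within each library, the pooled level of Ccl12 went from 668 CPM in the lowest to 1631 CPM in the highest, and that of Ccl8 from 2834 to 4675 CPM. Ccl12 in suffix 6 went the other way, from 1577 to 1162 CPM. At the fixed level of C1qa, however, Ccl8 was at 3722 CPM on the high side and 3864 CPM on the low side pooled, although higher on the high side in 5 of 6 libraries. Ccl9 went from 830 to 388 CPM, Ccl6 from 2077 to 1093 CPM and Ccl5 from 457 to 215 CPM, although Ccl5 in suffix 3 went from 135 to 241 CPM. Ccl3 was at 712 and 586 CPM and Ccl4 at 2499 and 2049 CPM in the lowest and highest group, with no steady order between. Ccl8 in suffix 6 was at 7301 CPM in the lowest group and 6379.8 CPM in the highest, whereas in suffix 4 it went from 617 to 5538 CPM.

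**Figure D4:**
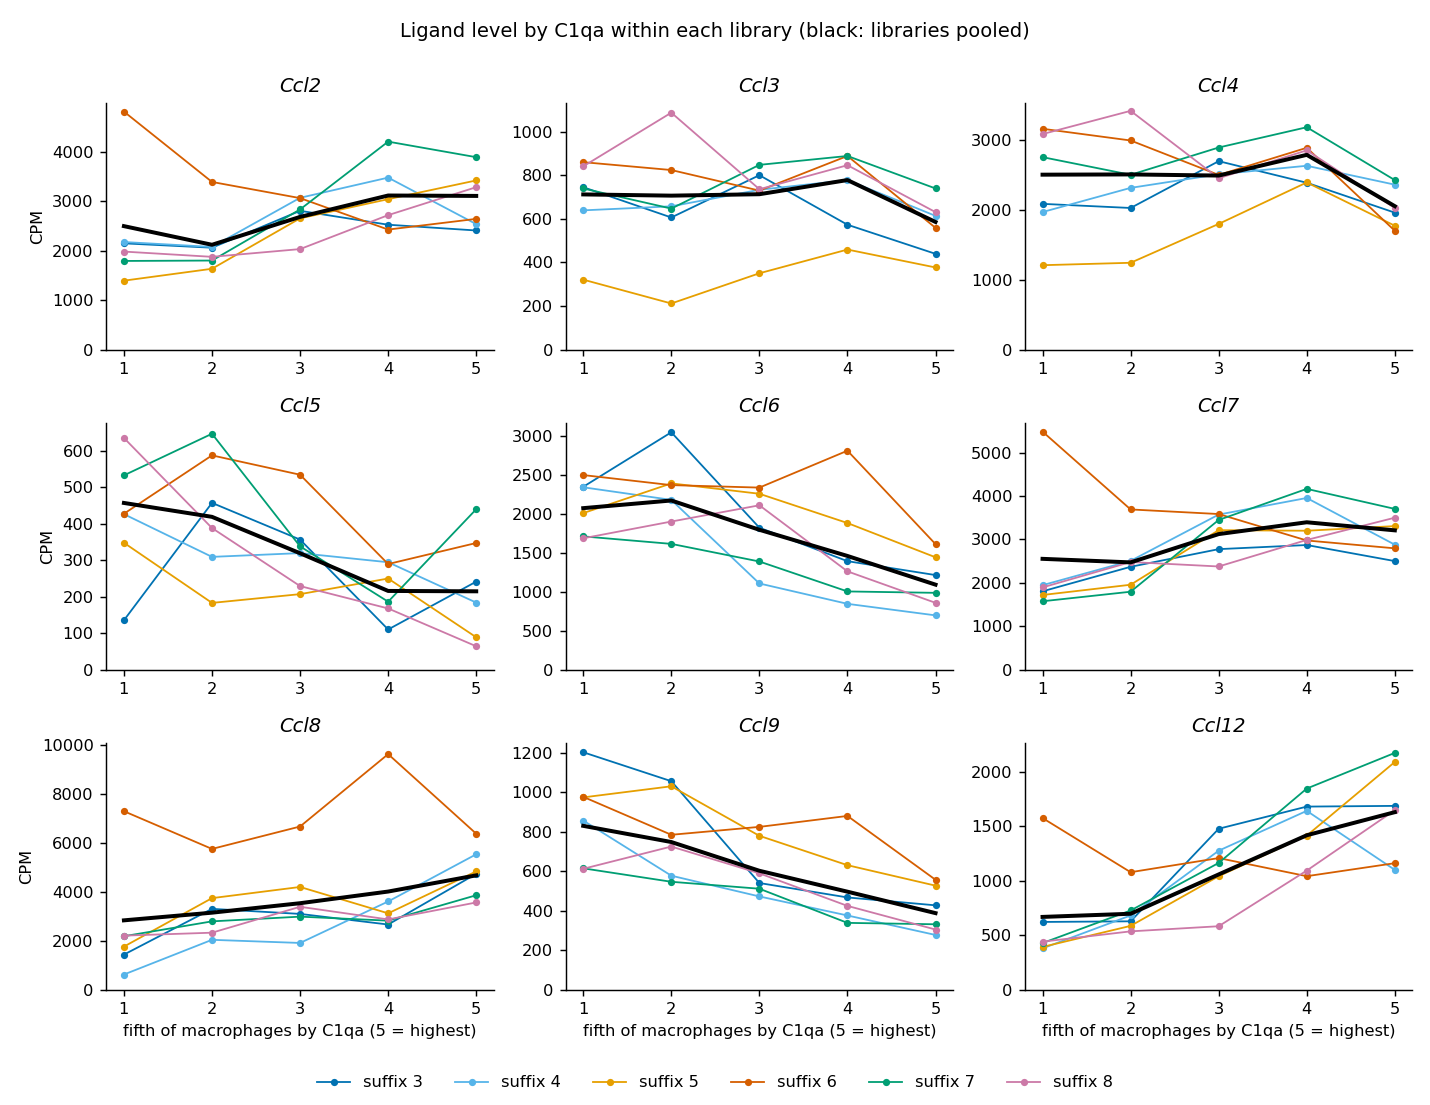
Level of each CC ligand in CPM over 5 groups of macrophages of equal size, ordered by C1qa within each library, with a line per library and a black line for the libraries pooled. Ccl12 goes from 668 to 1631 CPM (in suffix 6 from 1577 to 1162 CPM) and Ccl9 from 830 to 388 CPM in the pooled line, and the library with suffix 6 lies above the rest for Ccl8 in every group.

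Crossing C1qa with Ly6c2 placed Ccl6 and Ccl9 in a class that is low in both. The 857 barcodes low in C1qa and in Ly6c2 had 2922 CPM of Ccl6 and 1014 CPM of Ccl9, against 1352 and 453 CPM in the 2331 barcodes high in C1qa and low in Ly6c2. The 1117 barcodes low in C1qa and high in Ly6c2 had 1678 CPM of Ccl6 and 663 CPM of Ccl9. Pooled, Ccl5 was highest in that last class (535 CPM, 322 to 701 by library) and lowest in barcodes high in C1qa and low in Ly6c2 (202 CPM). The 383 barcodes high in both had 449 CPM of Ccl5, from 209 to 858 by library, a range that overlaps that of the highest class. Ccl8 had 4879 CPM pooled in barcodes low in both (library median 3966 CPM, from 1151 to 10248) and 3665 CPM in those high in C1qa and low in Ly6c2 (library median 3442 CPM), with ranges that overlap. Ccl12 had 1435 CPM in barcodes high in C1qa and low in Ly6c2 and 655 CPM in those low in both.

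In the Rsad2 division Ccl4 was at 3462 CPM at high Rsad2 and 2115 CPM at low Rsad2 (log2 ratio 0.71) and Ccl5 at 475 and 245 CPM (0.95), both higher in 6 of 6 libraries, as were 7.49% of all genes, while 0 ligands and 12.6% of genes were lower in every library. Ccl3 was at 1015 and 589 CPM (0.79) and higher in 5 of 6. No ligand was called, and 1.28% of genes were called higher, but without suffix 4 Ccl5 was called. Ccl8 had a pooled ratio of 0.66 but a library median of 0.25, and suffix 6, with the highest Ccl8, holds 386 of the 1239 high barcodes.

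Mmp12 divided Ccl6 and Ccl9 from Ccl8. Ccl6 was at 2498 CPM at high Mmp12 and 1472 CPM at low Mmp12 (log2 ratio 0.76), Ccl9 at 786 and 537 CPM (0.55) and Ccl3 at 845 and 667 CPM (0.34), each higher in 6 of 6 libraries, where 6.89% of all genes were. Ccl8 was at 2076 and 4116 CPM, a log2 ratio of -0.99 and lower in 6 of 6 libraries (-1.38 to -0.34), as were 17.6% of genes. It stood just short of the 2-fold limit, beyond which 0.69% of genes were called lower and 1.01% higher, and it was called without suffix 5, 6 or 7. The median gene stood at -0.13 in this division. Ccl6 and Ccl8, which had an r of 0.26 with each other (0.00 to 0.31 by library), thus differed in direction between barcodes high and low in Mmp12.

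**Figure D5:**
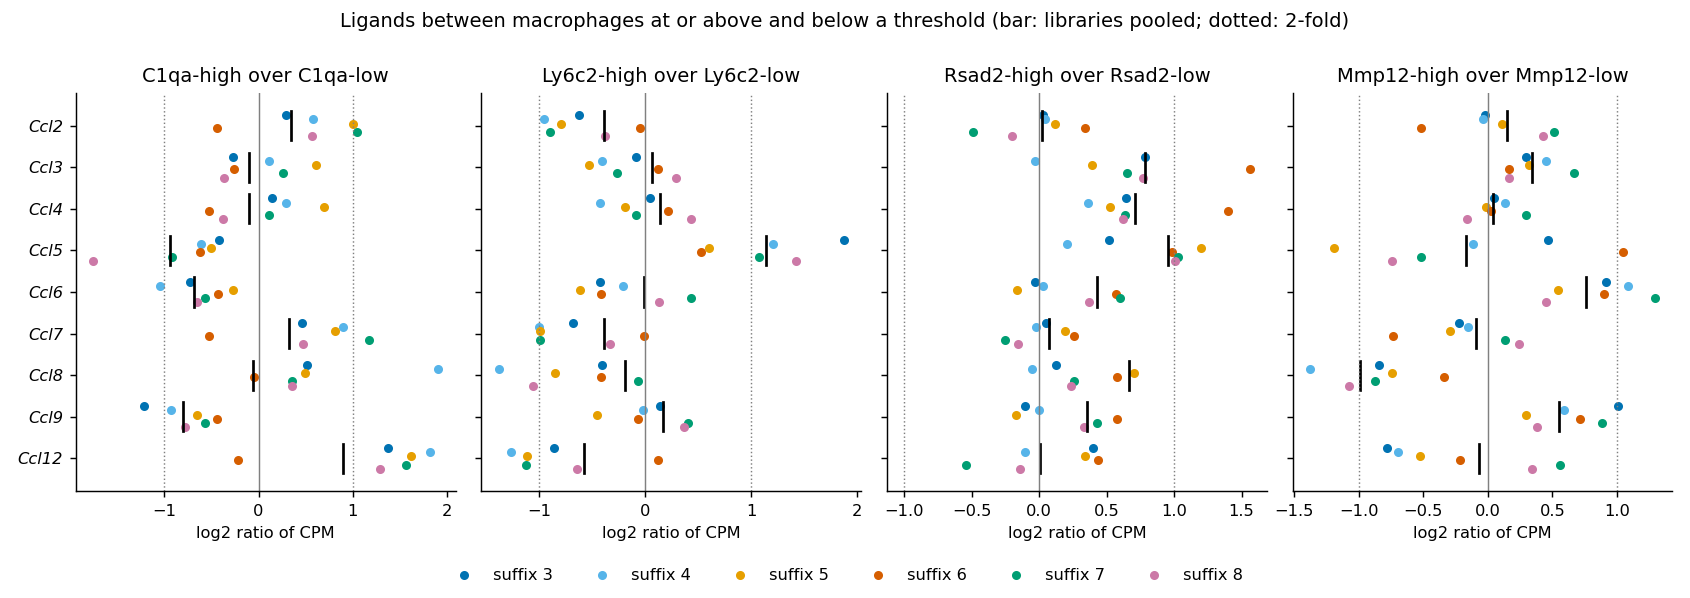
Log2 ratio of the CPM of each CC ligand between macrophages at or above and below a threshold of C1qa, Ly6c2, Rsad2 or Mmp12, with 1 point per library, a bar for the pooled value and dotted lines at 2-fold. Ccl5 passes 2-fold in the Ly6c2 division with all 6 libraries above 0, and the library with suffix 6 lies opposite to the other 5 for Ccl2, Ccl7 and Ccl12 in the C1qa division.

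The library with suffix 6 differed from the others in its macrophages. In it 31.6% of macrophage barcodes were high in C1qa, 56.2% in Ly6c2 and 55.8% in Rsad2, against 55.1 to 75.8%, 18.4 to 39.3% and 12.9 to 28.5% in the other libraries. Its macrophage level of Ccl5 (421 CPM), Ccl6 (2292 CPM), Ccl7 (3576 CPM), Ccl8 (7228 CPM) and Ccl9 (787 CPM) was the highest of the 6. Within its own C1qa-high barcodes Ccl8 was at 7078 CPM and within its C1qa-low barcodes at 7328 CPM, so that its high Ccl8 was found on both sides. The treatment of this tumor is not known, and library and treatment cannot be told apart here.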

How the data were processed

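CD45-positive cells of 6 CT26 tumors were profiled with the 10x 3′ v3.1 chemistry. The authors deposited 1 matrix of UMI counts per gene and barcode, and the labels list Cell Ranger 1.2, Seurat 3.1.5, R 4.0.1 and mm10, with no role or order. The counts were used as deposited, with no further filter on barcodes and no doublet caller. Barcode suffixes could not be matched to sample labels, so the planned count test of exoASO-STAT6 against exoASO-Scramble was not run, and libraries are given side by side without a test. Library totals ran from 11492757 to 33902084 UMIs, and intervals cover counting error only, of reads collapsed to UMIs within 1 library.

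CPM values are summed counts per 1000000 UMIs. Log2 ratios had 0.5 added to each sum. Correlations used the natural log of 1 plus the count per 10000, within each library. Background counts used genes with at least 50 UMIs. Thinning drew 1000 UMIs per barcode, or 3000 for correlations. Named genes were the 10 ligands, for each the 5 genes with the highest median correlation among those detected in at least 5% of macrophages, and lists of receptors, other ligands and response genes. Some members of these lists are not reported here. The members and lists were chosen with earlier results of these data known. The division of basophil barcodes, the gates without Csf1r or Adgre1, the T and dendritic subsets and the genes compared by Ccl5 were chosen after their values were seen. Alternatives were stricter or exclusive gates, thinning, other thresholds, Spearman correlation and leaving out each library. On simulated data, 100% of 200 genes raised 4-fold among 9307 passed 2-fold, as did 0.11% of the others. Python 3.11.15, numpy 2.4.6, scipy 1.17.1 and matplotlib 3.10.9 were used.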

Additional observations from a re-analysis of the deposited data

Results flagged for a closer look

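In 8 of 30 sets of 6 libraries (10 ligands in the macrophage, NK and T gates) 1 library lay far from the rest by Dixon's criterion. Chance alone meets it in about 1 of 20 sets of independent values with a normal distribution. The 30 sets share the same 6 libraries and some rest on few barcodes, so this rate need not hold here. Ccl8 in macrophages stood at 7228 CPM in the library with suffix 6. In the NK gate, Ccl7 (1006 CPM) and Ccl9 (412 CPM) stood apart in suffix 5, with 27 NK barcodes, and Xcl1 (679 CPM) in suffix 7, with 66. In the T gate, Ccl6 (1473 CPM), Ccl8 (1016 CPM) and Ccl9 (627 CPM) stood apart in suffix 5, with 40 T barcodes, and Xcl1 (384 CPM) in suffix 3, with 34. Suffix 5 thus accounts for 5 of the 8.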

How the results depend on the processing

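No paired analysis was possible because the barcode suffixes could not be matched to the labelled replicates. The number of ligands with their highest level in the neutrophil gate was 1 with all libraries and between 1 and 4 when each library was left out, and that for the basophil gate was 3 and between 0 and 3. The number called higher at high Ly6c2 went from 1 to 2 with the thresholds halved or with at least 1 raw UMI against none, where Xcl1, with 152 UMIs in macrophages, joined Ccl5. The numbers called higher at high C1qa, lower at high C1qa, higher at high Rsad2 and lower at high Mmp12 were each 0 and lay between 0 and 1 when each library was left out. Thinning to 1000 UMIs also gave 1 ligand lower at high Mmp12, Ccl8, and moved Ccl9 from the macrophage to the basophil gate. For these changes the cause was not tested. Of the alternative values for single ligands, 199 levels stayed within the spread between libraries and 10 moved. For split ratios 393 stayed and 3 moved, and for correlations 311 stayed and 13 moved. A change of sign was not counted for levels or correlations, and for split ratios only where a ligand was called. Correlations near 0 did change sign, as for Ccl4 and Ccl8 (0.01, and -0.05 in the stricter gate). The levels that moved were, on thinning, Ccl5 in the NK gate, Ccl3, Ccl4 and Ccl6 in the basophil gate, Ccl4 in the neutrophil gate and Ccl12 in macrophages, which also moved in the stricter gate, and, without Csf1r or Adgre1, Ccl3 and Ccl4 in the neutrophil gate and Ccl5 in the dendritic gate. Thinned to 3000 UMIs, the 4643 macrophages left gave 0.74 for Ccl2 and Ccl7, 0.61 for Ccl3 and Ccl4 and 0.52 for Ccl6 and Ccl9. The small number of UMIs (152) limits the values of Xcl1 in macrophages, and the number of barcodes (90) limits those of the basophil gate.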

Other observations

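Xcl1 was detected in 0.896% of macrophage barcodes, and there its nearest genes were the lymphocyte genes Il2rb (0.28), Nkg7 (0.25), Satb1 (0.23) and Prf1 (0.21). Ccl5 within macrophages had a median correlation of 0.14 with the 5 measured cytotoxic lymphocyte genes, 5 of 5 above 0. Ccl1, a ligand of Ccr8, had its highest level in the T gate, with 537 UMIs in the whole matrix.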
